A study of Mus musculus with 24 samples.

Results

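The transcripts described here are those of 8 mouse genes of meiotic recombination and crossover formation, namely Dmc1, Psmc3ip, Mnd1, Msh4, Msh5, Rnf212, Ccnb1ip1 and Mlh3. They were taken from the deposited count table by the Ensembl identifiers that the GENCODE M21 annotation of GRCm38 pairs with these symbols, which matched 8 of the 55536 genes in the table, with 1 row each. All 8 passed the filter on low counts (10 or more counts in 3 or more libraries) in spermatocytes, in round spermatids and in both together, where 19450, 19310 and 20404 genes were tested. Every library used held 9 or more counts of each of the 8, so none passed through 1 group alone.

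During meiosis chromosomes are cut by programmed double-strand breaks, and the repair of some of these breaks from the homologous chromosome yields crossovers, which hold homologs together until they separate. DMC1 is the recombinase that coats the resected ends and, helped by the heterodimer of HOP2 (the product of Psmc3ip) and MND1, invades the homolog. The heterodimer of MSH4 and MSH5 stabilises the resulting joint molecules, RNF212 and HEI10 (the product of Ccnb1ip1) act on which of them become crossovers, and MLH3 takes part in resolving these as crossovers. In the mouse testis these steps run from leptonema to the end of the pachytene stage, before the meiotic divisions that give round spermatids.

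A deletion on chromosome 4, which takes out the whole of Ago1 together with portions of Ago3 and of Ago4, all encoding Argonaute proteins of small RNA pathways, was carried on no allele (Ago413+/+, wild-type), on 1 allele (Ago413+/-, heterozygous) or on both (Ago413-/-, null). It was made in embryonic stem cells, was crossed to C57BL/6J and is constitutive, so somatic cells of the testis carry it too. Pachytene/diplotene spermatocytes and round spermatids came from males 10 to 15 weeks old, the testes of 2 to 5 of them pooled for each preparation on an albumin gradient, with a stated purity above 70%. Of 24 libraries, 3 that the labels call outliers were set aside, which left 10 libraries of spermatocytes (4 wild-type, 3 heterozygous, 3 null) and 11 of round spermatids (3 wild-type, 4 heterozygous, 4 null).

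Total counts ran from 12825105 to 29749058 in the 21 libraries used. Ago1 had 0 counts in all 7 null libraries and between 1.71 and 4.49 CPM in the other used libraries, as the genotype labels state. CPM are counts scaled to a common library total with TMM factors, and a count of 0 would allow at most 0.234 CPM in the shallowest library, counting error only. Over lists of stage markers from the study's wild-type single cells, the summed level of 64 genes of the RS2 round spermatid list was 4788 to 10134 CPM in spermatocytes and 25562 to 32362 CPM in round spermatids of the wild-type. The summed level of 90 pachytene genes was 3423 to 8416 CPM in the former and 2199 to 2941 CPM in the latter. The RS2 list separated the fractions in heterozygous and null mice too, but the pachytene list did not. It was as low as 2120 CPM in heterozygous spermatocytes and reached 2981 CPM in heterozygous round spermatids, and in null mice these were 2149 and 2454 CPM. Each fraction thus held transcripts of the other stage. Within wild-type spermatocytes the replicates were unequal, because the pachytene list summed to 6864, 4835, 8416 and 3423 CPM in replicates 1, 2, 4 and 5.

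**Figure D1:**
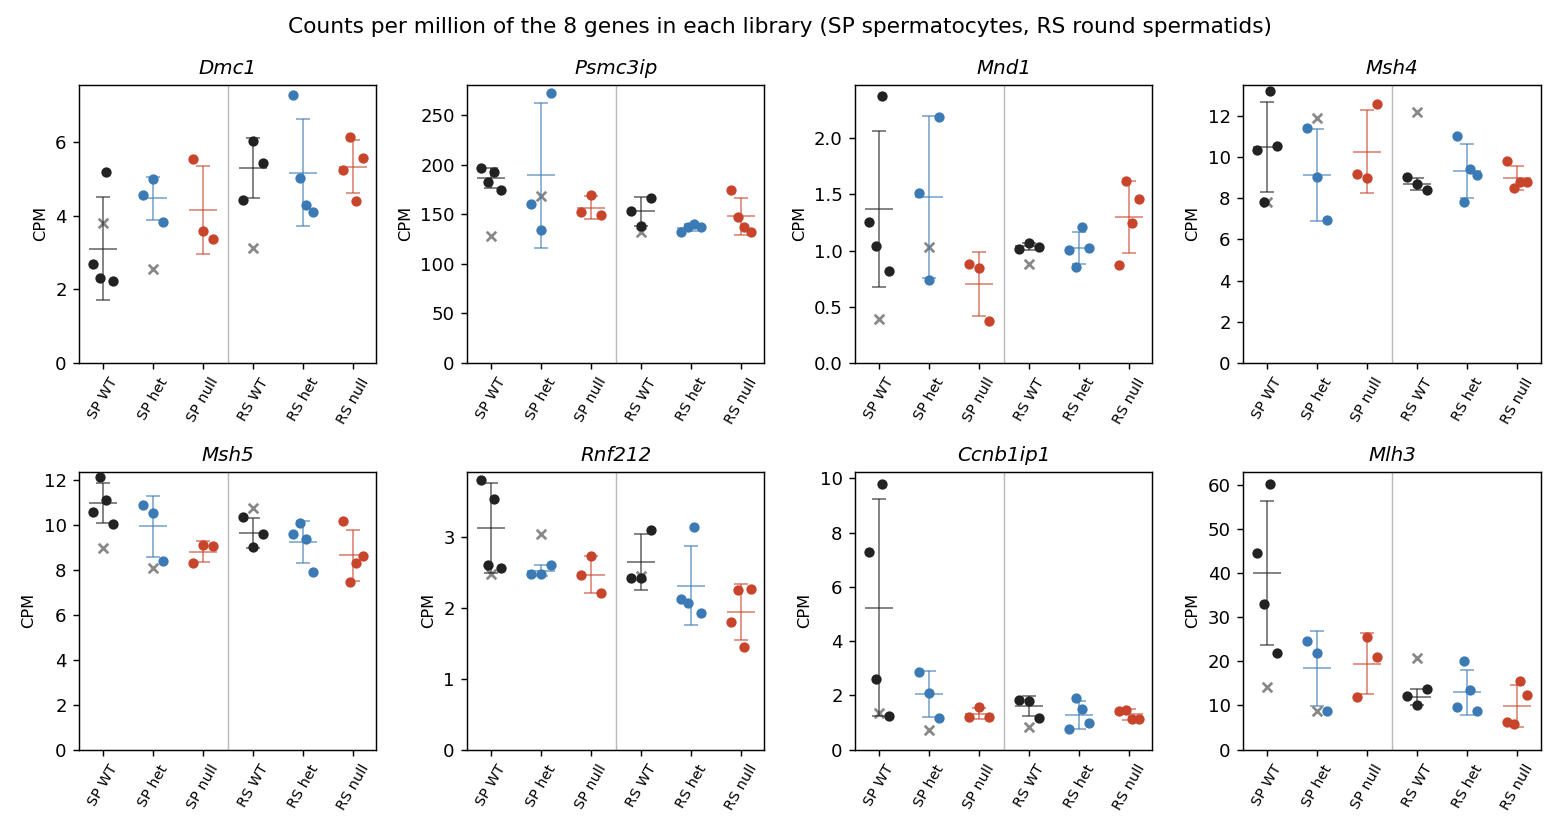
Level in CPM (y axis, linear from 0) of each of the 8 genes in wild-type (WT), heterozygous (het) and null spermatocytes (SP) and round spermatids (RS). Each dot is a library, the horizontal line and bars are the mean ± SD of the libraries used, and grey crosses are the 3 libraries that the labels left out. In wild-type spermatocytes Ccnb1ip1 ran from 1.22 to 9.79 CPM, the widest range of the 8 as a ratio, and Mlh3 from 22.01 to 60.3 CPM.

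The 3 genes of strand exchange stood at very different levels. Psmc3ip (ENSMUSG00000019303, chr11:101091823-101095436, minus strand) was the most abundant of the 8 by far. Its level in wild-type spermatocytes was 196, 182, 193 and 175 CPM in replicates 1, 2, 4 and 5. In wild-type round spermatids it was 153, 138 and 167 CPM in replicates 1, 2 and 4, below every wild-type spermatocyte library. Per kilobase of exon, Psmc3ip reached 103 ± 5.45 CPM in wild-type spermatocytes (SD, n = 4), and over the 21 libraries its mean level per length was at the 95.7th percentile of the genes tested. Across the other groups it stayed between 132 and 175 CPM, apart from the 3 heterozygous spermatocyte libraries, where it was 161, 134 and 273 CPM. The third of these was the highest of all libraries. Reads of Psmc3ip could be shared with Mlx on the opposite strand, which overlaps 21.2% of its exon bases, but Mlx had only 1290 counts over the 21 libraries against 71165 for Psmc3ip.

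Dmc1 (ENSMUSG00000022429, chr15:79561497-79605109, minus strand) was low in both fractions and did not follow Psmc3ip. In wild-type spermatocytes it measured 2.70, 2.31, 5.19 and 2.23 CPM in replicates 1, 2, 4 and 5, and round spermatids of that genotype held 4.44, 6.03 and 5.44 CPM (replicates 1, 2 and 4). Only spermatocyte replicate 4 lay inside the range of the round spermatids. Heterozygous spermatocytes held 4.57, 5.01 and 3.84 CPM and null spermatocytes 5.54, 3.58 and 3.37 CPM, which overlap with the wild-type range because of that 1 library. In round spermatids the heterozygous range was 4.10 to 7.28 CPM and the null range 4.39 to 6.14 CPM, both spanning the 3 wild-type values.

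Mnd1 (ENSMUSG00000033752, chr3:84087933-84155786, minus strand) reached the fewest counts of the 8, with 9 to 49 in the libraries used, although per kilobase of exon its mean over the 21 libraries, 1.33 CPM, was above the 1.17 CPM of Ccnb1ip1. Wild-type spermatocytes held 1.25, 1.04, 2.38 and 0.815 CPM, heterozygous ones 1.51, 0.741 and 2.19 CPM, and null ones 0.885, 0.849 and 0.375 CPM. Null replicates 1 and 2 lay at the low end of the wild-type range and replicate 3 lay below it. In round spermatids the 3 wild-type libraries were nearly equal, at 1.01 to 1.07 CPM, and the null ones ran from 0.874 to 1.62 CPM. The level of Mnd1 is uncertain, since 56.4% of the 31-base words in its transcripts also occur in Mnd1-ps, a processed pseudogene on chromosome 14 (chr14:9884195-9886768) that received 1 count over the 21 libraries. Reads that align to both places are not counted for either gene by the counting option the authors used.

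The MutS homologs Msh4 (ENSMUSG00000005493, chr3:153857149-153906138, minus strand) and Msh5 (ENSMUSG00000007035, chr17:35028605-35046745, minus strand) were the steadiest pair. Msh4 was 10.4, 7.81, 13.2 and 10.5 CPM in wild-type spermatocytes, 9.17, 9.005 and 12.6 CPM in null spermatocytes and 8.40 to 9.01 CPM in wild-type round spermatids. Msh5 was 10.6, 12.1, 11.1 and 10.0 CPM in wild-type spermatocytes, 10.9, 10.5 and 8.37 CPM in heterozygous and 8.29, 9.10 and 9.03 CPM in null spermatocytes. All 3 null libraries of Msh5 lay below all 4 wild-type ones, while those of Msh4 fell within the wild-type range. Per kilobase of exon both sat between 1.26 and 1.98 CPM as group means, with Msh5 the higher in every group.

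Of the genes that designate crossovers, Rnf212 (ENSMUSG00000055385, chr5:108729290-108774982, minus strand) kept within narrow bounds and Ccnb1ip1 (ENSMUSG00000071470, chr14:50789248-50807732, minus strand) did not. Rnf212 measured 3.81, 2.60, 3.54 and 2.57 CPM in wild-type spermatocytes and 2.21 to 2.73 CPM in the 6 heterozygous and null spermatocyte libraries. Ccnb1ip1 measured 7.28, 2.60, 9.79 and 1.22 CPM in wild-type spermatocytes, 2.87, 2.09 and 1.17 CPM in heterozygous and 1.21, 1.56 and 1.21 CPM in null spermatocytes. Replicates 1 and 4 of the wild-type were thus well above the rest, and replicate 5 was level with the null libraries. In the 11 round spermatid libraries Ccnb1ip1 lay between 0.770 and 1.89 CPM in every genotype. An antisense gene, 1700047L14Rik, lies across Rnf212 with no shared exon bases, and the ribozyme gene Rpph1 covers 12.4% of the exon bases of Ccnb1ip1 on the same strand with 10 counts in all.

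Mlh3 (ENSMUSG00000021245, chr12:85234520-85270599, minus strand), which encodes the crossover-specific MutL homolog, had the highest level after Psmc3ip in each group of spermatocytes. It measured 44.7, 33.1, 60.3 and 22.01 CPM in wild-type, 24.6, 21.9 and 8.75 CPM in heterozygous and 11.9, 25.6 and 21.1 CPM in null spermatocytes. Wild-type replicates 1, 2 and 4 were above all 6 libraries of the other genotypes and replicate 5 was not. Wild-type round spermatids held 12.1, 10.1 and 13.8 CPM, below every wild-type spermatocyte library. Per kilobase of exon the order in wild-type spermatocytes was Psmc3ip, Mlh3 at 5.30 ± 2.17 CPM, Ccnb1ip1 at 2.77 ± 2.12, Msh5 at 1.98 ± 0.162, Rnf212 at 1.90 ± 0.386, Mnd1 at 1.57 ± 0.792, Msh4 at 1.52 ± 0.318 and Dmc1 at 1.28 ± 0.577 CPM (SD, n = 4). Each neighbouring pair in that order overlapped between libraries except Psmc3ip and Mlh3. In wild-type round spermatids Dmc1 stood next after Psmc3ip, at 2.18 ± 0.331 CPM per kilobase (SD, n = 3), and overlapped with Msh5 below it.

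The first comparison asks which of these transcripts differ between wild-type round spermatids and spermatocytes. A gene was called at an adjusted p below 0.05 with an absolute log2 fold change above 0.5. Of the 8 members, 3 were called, with Mlh3 and Ccnb1ip1 lower and Dmc1 higher in round spermatids, where 24.2% of all 20404 genes were called by edgeR. The log2 level of Mlh3 fell by 1.74 (SE 0.41, edgeR adjusted p = 0.00382), which is 3.34-fold, and Ccnb1ip1 fell by 1.68 (SE 0.49, edgeR adjusted p = 0.0154). Dmc1 rose by 0.77 (SE 0.28, edgeR adjusted p = 0.0471), a call that a block by consecutive library numbers, which run across the fractions, ended (0.73, edgeR adjusted p = 0.0553). DESeq2 called the same 3 members, with 26.7% of genes called. In bulk samples, fewer cells of a type and less RNA per cell cannot be told apart.

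The other 5 members gave log2 fold changes between -0.40 for Mnd1 and -0.18 for Msh5. The 95% interval of the change was -0.68 to 0.14 for Msh4 and -0.52 to 0.15 for Msh5, so a log2 change of -1 was outside both. Libraries of both fractions did not overlap for 2 members, Mlh3 and Psmc3ip, and for 33.7% of all genes tested. The median log2 fold change was -0.28 over the 8 members and 0.02 over all genes tested.

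The calls did not rest equally on the libraries. With the outlier libraries added back edgeR called no member and no gene of the table, 5950 of them having an unadjusted p below 0.05, Mlh3 then standing at -1.30 (edgeR adjusted p = 0.0646). Of the wild-type libraries among them, the spermatocyte one had 17539 CPM of the RS2 list and 2410 CPM of the pachytene list, outside the range of the wild-type spermatocytes used in both. The round spermatid one had 7307 CPM of the RS2 list, as low as spermatocytes, and 2515 CPM of the pachytene list, within the range of the wild-type round spermatids used. The part of this in the lost calls was not tested. Without wild-type spermatocyte replicate 4 the change of Ccnb1ip1 was -1.18 (edgeR adjusted p = 0.0887), and without round spermatid replicate 4 it was -1.51 (edgeR adjusted p = 0.0697). Dmc1 was higher in round spermatids under every alternative and lost its call under 11 of 15 of them, the adjusted p ranging from 0.0064 to 0.177 in edgeR and DESeq2. The macrophage list, of which 9 of 10 genes were tested, moved with the fraction too, summing to 13.9 to 20.02 CPM in wild-type spermatocytes and 35.2 to 55.7 CPM in wild-type round spermatids. So did the peritubular myoid list (4 of 5 genes tested), from 3.39 to 5.25 CPM in the former and from 5.51 to 8.54 CPM in the latter. The Sertoli list overlapped, at 137 to 367 CPM in the former and 161 to 393 CPM in the latter. The Leydig list (3.54 to 12.7 and 3.72 to 11.2 CPM) and the erythrocyte list (1.60 to 6.47 and 4.01 to 8.66 CPM) overlapped too. The spermatogonial list was 1154, 1211, 1423 and 1050 CPM in wild-type spermatocytes and 1378, 1477 and 1356 CPM in wild-type round spermatids, with only spermatocyte replicate 4 in the range of the round spermatids, as for Dmc1. The part of these lists in the differences was not tested.

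**Figure D2:**
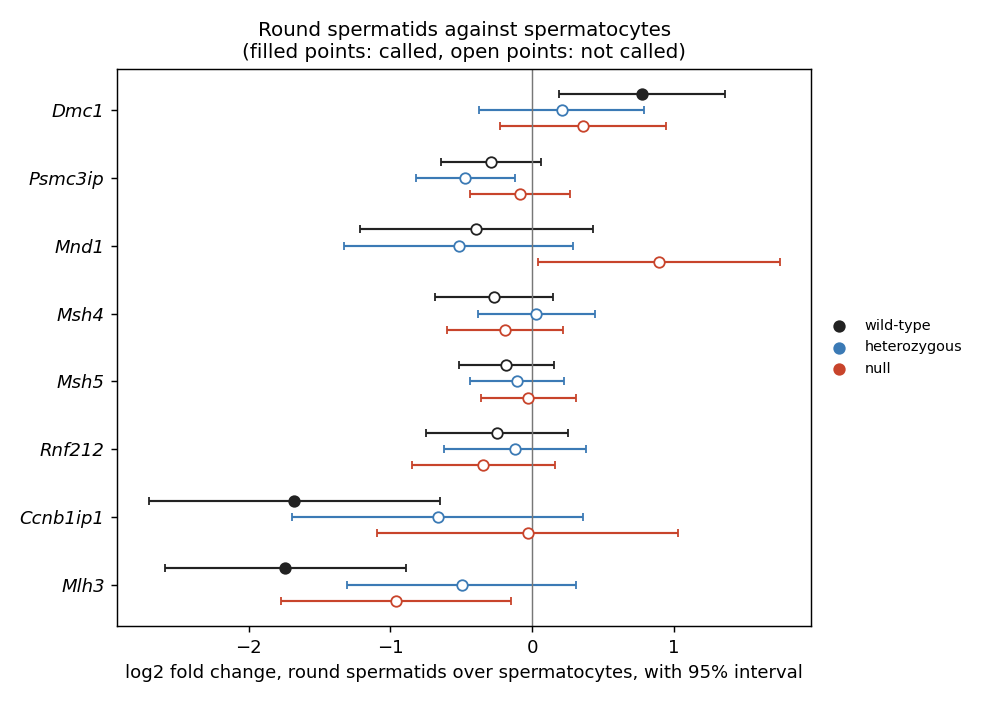
Log2 fold change of round spermatids over spermatocytes (x axis) with its 95% interval for each of the 8 genes, in wild-type (black), heterozygous (blue) and null (red) mice. Filled points passed both thresholds. Mlh3 stood at -1.74, -0.50 and -0.96 and Ccnb1ip1 at -1.68, -0.67 and -0.03 in the 3 genotypes, and only the wild-type changes of these and of Dmc1 were called.

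The same comparison within heterozygous and within null mice called none of the 8. The background was 8.89% of genes called by edgeR in heterozygous and 17.1% in null mice. Mlh3 stood at -0.50 (SE 0.39) in heterozygous and -0.96 (SE 0.39, edgeR adjusted p = 0.0899) in null mice. Ccnb1ip1 stood at -0.67 (SE 0.49) and -0.03 (SE 0.51). Mnd1 was the 1 member whose point estimate changed side between wild-type and null, from -0.40 to 0.89 (SE 0.41, edgeR adjusted p = 0.135). Psmc3ip had the change nearest to a call in heterozygous mice, at -0.47 (SE 0.17, edgeR adjusted p = 0.0837), and passed when heterozygous spermatocyte replicate 2 was left out (-0.67, edgeR adjusted p = 0.0124). No member was without overlap between the fractions in either genotype, against 18% of genes in heterozygous and 29.7% in null mice.

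The next comparison asks whether the Argonaute deletion changes these transcripts in spermatocytes. None of the 8 was called between null and wild-type spermatocytes, where edgeR called 0.0411% of 19450 genes. Of the 8, 7 had a lower point estimate in null libraries, as did 51.7% of all genes tested. The median log2 fold change was -0.31 over the 8 and -0.03 over all genes tested. The direction of the 8 as a set was not tested, and they are not independent (Mlh3 with Ccnb1ip1, Pearson r = 0.85 over spermatocyte libraries). Ccnb1ip1 had the largest difference, at -1.95 (SE 0.59, 95% interval -3.22 to -0.67, edgeR adjusted p = 0.0705), and Mlh3 followed at -1.01 (SE 0.39, 95% interval -1.85 to -0.18, edgeR adjusted p = 0.107). Mnd1 stood at -0.93 (SE 0.50, edgeR adjusted p = 0.218). Dmc1 was the only member at a higher estimate, 0.45 (SE 0.33, edgeR adjusted p = 0.358).

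The tool mattered here. DESeq2 called Ccnb1ip1 (-1.93, DESeq2 adjusted p = 0.0121) and no other member, with 15.6% of genes called, and gave Mlh3 an adjusted p of 0.063. The 2 members whose null libraries all lay below all wild-type libraries were neither of these but Msh5 and Psmc3ip, at -0.29 (SE 0.20) and -0.23 (SE 0.20), where 27.8% of all genes tested had groups that did not overlap. Msh4 differed least, at -0.01 with a 95% interval of -0.54 to 0.52.

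The calls for Ccnb1ip1 and Mlh3 turned on the filter and on wild-type spermatocyte replicate 5. With no filter on low counts edgeR called Ccnb1ip1 (-1.92, edgeR adjusted p = 0.000241) and Mlh3 (-0.98, edgeR adjusted p = 0.00418). Without that replicate edgeR called both, Ccnb1ip1 at -2.28 (edgeR adjusted p = 0.00794) and Mlh3 at -1.21 (edgeR adjusted p = 0.0373), and the count of called genes over the table went from 8 to 4526. Replicate 5 was the library with the lowest pachytene list of its group, and 1 of 2 used wild-type libraries that the labels number above 60. Among spermatocyte libraries above 60, Ccnb1ip1 was 1.22 CPM in the 1 wild-type and 1.21 and 1.56 CPM in the 2 null ones. Mlh3 was 22.01 CPM against 21.1 and 25.6 CPM there. At 60 and below, Ccnb1ip1 was 2.60 to 9.79 CPM in 3 wild-type libraries and 1.21 CPM in 1 null library. Mlh3 was 33.1 to 60.3 CPM against 11.9 CPM in those. The summed pachytene list was 2149 to 3833 CPM in null against 3423 to 8416 CPM in wild-type spermatocytes, so it moved with these members. Its part in their difference between genotypes was not tested.

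**Figure D3:**
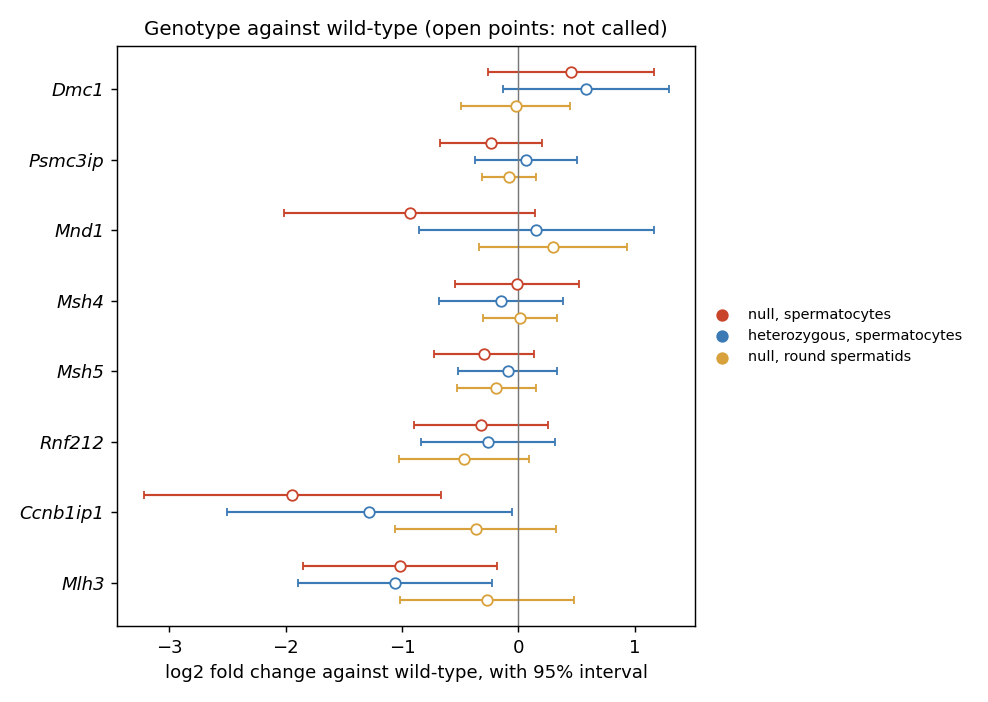
Log2 fold change against wild-type (x axis) with its 95% interval for each of the 8 genes in null spermatocytes (red), heterozygous spermatocytes (blue) and null round spermatids (yellow). No point passed the thresholds in edgeR. Ccnb1ip1 and Mlh3 lay lowest in both spermatocyte comparisons, at -1.95 and -1.01 in null and -1.28 and -1.06 in heterozygous spermatocytes, while the round spermatid values were between -0.47 and 0.30.

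Heterozygous spermatocytes were compared with those wild-type libraries too, and had Ccnb1ip1 at -1.28 (SE 0.57, edgeR adjusted p = 0.188) and Mlh3 at -1.06 (SE 0.39, edgeR adjusted p = 0.141). None of the 8 was called, where edgeR called 0.0257% of genes, and no member was without overlap, against 17.2% of genes. Without wild-type replicate 5 these 2 passed here as well, at -1.62 (edgeR adjusted p = 0.0351) and -1.26 (edgeR adjusted p = 0.0428). Both comparisons share their control libraries, so their likeness is not independent. Set directly against heterozygous spermatocytes, null spermatocytes differed by 0.05 in Mlh3 (95% interval -0.82 to 0.92) and by -0.66 in Ccnb1ip1 (95% interval -1.996 to 0.67). In that comparison 0.00514% of genes were called, 8.6% had groups that did not overlap, and all 8 members overlapped. Its most negative value was that of Mnd1, -1.09 (SE 0.52, edgeR adjusted p = 0.974).

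In round spermatids no member was called between any pair of genotypes. The background of edgeR calls was 0.0518% for null against wild-type, 0.0207% for heterozygous against wild-type and 0.00518% for null against heterozygous. The 8 log2 fold changes of null against wild-type ran from -0.47 for Rnf212 to 0.30 for Mnd1. Rnf212 was 2.42, 2.43 and 3.10 CPM in wild-type and 1.80, 2.26, 1.45 and 2.27 CPM in null round spermatids, so that all null libraries lay below all wild-type ones (SE 0.26, edgeR adjusted p = 0.344). It was the only member of the 8 without overlap there, against 20.8% of genes. The list of diplotene and division stages was 7406 to 8146 CPM in null and 9441 to 10963 CPM in wild-type round spermatids. The spermatogonial list was 1522 to 1720 CPM and 1356 to 1477 CPM in these. Over the round spermatid libraries of all genotypes Rnf212 correlated with the 2 lists at 0.60 and -0.55. Their part in its difference was not tested. Mlh3 stood at -0.27 (95% interval -1.02 to 0.48) and Ccnb1ip1 at -0.37 (95% interval -1.06 to 0.33), and both intervals reach a log2 change of -1. Psmc3ip, with 2227 or more counts in each library, had the narrowest interval, -0.31 to 0.15. Between heterozygous and wild-type round spermatids the 8 values lay within -0.31 to 0.15, and between null and heterozygous within -0.42 to 0.31. Members without overlap numbered 0 in both, against 8.69% and 4.01% of genes.

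Whether the null effect differed between the fractions was tested as an interaction over all 21 libraries. No gene of 20404 was called (0%), by edgeR or DESeq2, and 1215 genes had an unadjusted p below 0.05. Ccnb1ip1 had the largest value among the 8, 1.65 (SE 0.71, edgeR adjusted p = 0.807), and Mnd1 the next, 1.29 (SE 0.57, edgeR adjusted p = 0.807). Mlh3 gave 0.78 with a 95% interval of -0.38 to 1.94. The interaction of Msh5 was 0.15 (95% interval -0.32 to 0.63).

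In spermatocytes Mlh3 and Ccnb1ip1 moved together and with the pachytene list. Across the 10 spermatocyte libraries the Pearson correlation of their log2 levels was 0.85, and each followed the summed pachytene list, from which Mlh3 itself had been removed. For Mlh3 against that list it was 0.98 (Spearman 0.98), and 0.97 without the 2 libraries farthest from the median, wild-type replicates 1 and 4. For Ccnb1ip1 it was 0.92 (Spearman 0.96) and 0.77 without those 2. Rnf212 also followed the list (0.77), but that rested on the same 2 libraries (0.13 without them), and Msh5 did so with and without them (0.78 and 0.88). These points share library, preparation and scaling, and 3 genotypes are mixed in them. Dmc1 did not follow the pachytene list (-0.16) and followed the spermatogonial one, at 0.86 and at 0.88 without the 2 farthest libraries. In round spermatids its correlation with the spermatogonial list was 0.23, and 0.51 without the 2 farthest. Against the leptotene and zygotene list, from which Dmc1 had been removed, it stood at 0.12 in spermatocytes, and at -0.77 without the 2 farthest libraries. In the 11 round spermatid libraries Mlh3 still followed the pachytene list (0.88), which ran from 1571 to 2981 CPM there, and Ccnb1ip1 did less so (0.34). Mlh3 and Ccnb1ip1 correlated with each other at 0.16 in these. Rnf212 and Ccnb1ip1 correlated at 0.86 in spermatocytes and 0.23 in round spermatids.

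**Figure D4:**
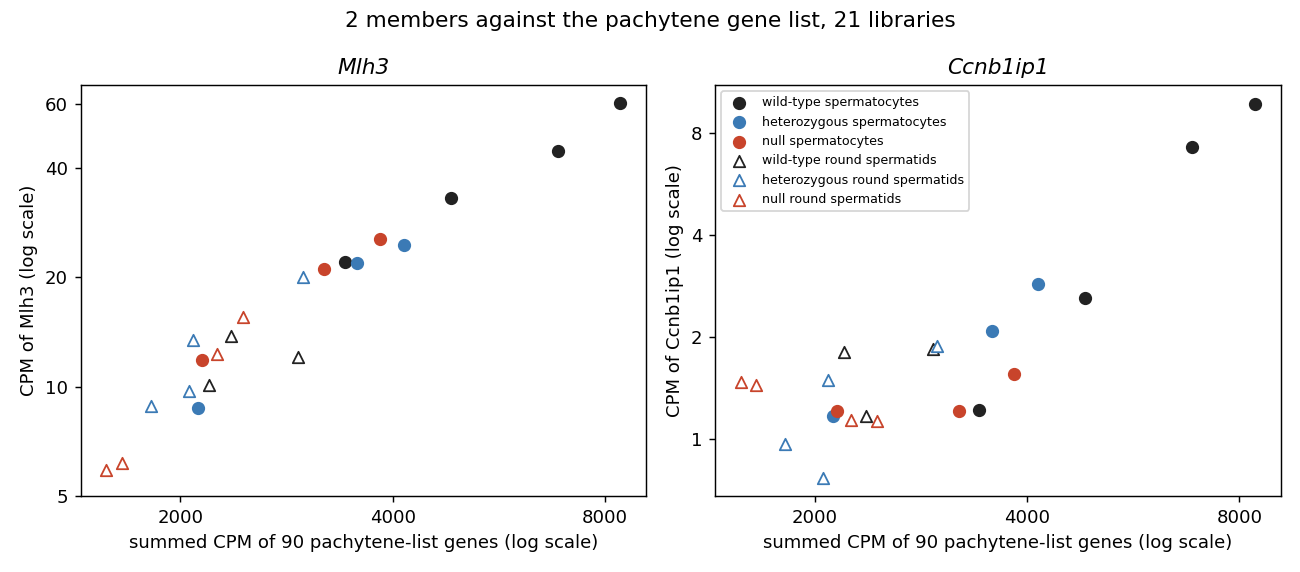
Level of Mlh3 (left) and Ccnb1ip1 (right) in CPM against the summed CPM of 90 pachytene-list genes in the 21 libraries, both axes on log scales, with filled circles for spermatocytes and open triangles for round spermatids and 1 colour per genotype. Mlh3 tended to be higher where the list was higher, from 1571 to 8416 CPM, but not in every pair of libraries. Wild-type round spermatid replicate 1 had 2941 CPM of the list and 12.1 CPM of Mlh3, null replicate 3 had 2454 and 15.6 CPM. Ccnb1ip1 was above 3 CPM only in wild-type spermatocyte replicates 1 and 4.

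Because Mlh3 and Ccnb1ip1 moved together over spermatocyte libraries, the 250 bases before their RefSeq starts are shown, with those of Rnf212 for a window that holds a motif. All are from GRCm38.p6, minus strand, 5′ to 3′. The windows are chr12:85270600-85270849 for Mlh3, chr14:50795729-50795978 for Ccnb1ip1 and chr5:108775028-108775277 for Rnf212. That of Ccnb1ip1 precedes a RefSeq start that lies inside the gene as GENCODE draws it, and the window before the outer GENCODE start was not analysed here. Capitals mark a match to the E2F motif GGCGGGAA.
Mlh3: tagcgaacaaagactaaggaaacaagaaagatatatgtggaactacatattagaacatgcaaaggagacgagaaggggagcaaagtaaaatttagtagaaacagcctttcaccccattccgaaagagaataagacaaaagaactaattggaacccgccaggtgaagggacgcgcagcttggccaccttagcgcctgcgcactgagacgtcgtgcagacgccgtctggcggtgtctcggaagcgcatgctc
Ccnb1ip1: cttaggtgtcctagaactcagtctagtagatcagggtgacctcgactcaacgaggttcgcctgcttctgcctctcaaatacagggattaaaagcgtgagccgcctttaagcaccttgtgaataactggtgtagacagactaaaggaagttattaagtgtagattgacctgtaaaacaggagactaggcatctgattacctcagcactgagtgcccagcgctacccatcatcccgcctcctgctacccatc
Rnf212: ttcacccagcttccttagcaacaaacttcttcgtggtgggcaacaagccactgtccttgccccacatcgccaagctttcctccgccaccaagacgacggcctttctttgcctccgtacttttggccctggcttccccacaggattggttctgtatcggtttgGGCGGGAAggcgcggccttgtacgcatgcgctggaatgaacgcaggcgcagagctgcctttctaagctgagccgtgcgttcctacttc

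The 5 motifs were searched on both strands of this window in all 8 genes and in 32841 promoters of the table. The E2F motif was found in Rnf212 and Msh5 among the 8 and in 1.85% of promoters. CNCCTCAG, the motif of STRA8 and MEIOSIN, which start the meiotic programme, was found in Msh5 alone, and in 6.42% of promoters. No match to the MYB motif GGCAGTT (3.33% of promoters), the CRE motif TGACGTCA (1.55%) or the palindromic NRF1 motif (0.783%) was found among the 8. Mlh3 and Ccnb1ip1 held none of the 5 in this window, and the other listed start of Mlh3 lay within a few bases of the first. A match is a description of the letters only.

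Over all 21 libraries and all genes tested, the gene whose log2 level was most like that of Mlh3 was Rnf6 (Pearson r = 0.990), and 557 genes passed 0.9. For Ccnb1ip1 it was Rpap3 (0.946, with 54 genes past 0.9). For Psmc3ip it was Timm8b (0.976, with 131 genes past 0.9), which encodes a small mitochondrial import factor. The other 5 had no gene past 0.9, the nearest being Mcm5 for Dmc1 (0.862), Phf20 for Mnd1 (0.741), Tfcp2 for Msh4 (0.812), Nat14 for Msh5 (0.827) and Zbtb48 for Rnf212 (0.809). Among the 8 themselves no pair reached 0.9, and Dmc1 correlated negatively with Mlh3 (-0.52) and with Psmc3ip (-0.46). These values pool both fractions, and within spermatocytes and within round spermatids they were -0.19 and -0.34 for Mlh3 and -0.25 and -0.072 for Psmc3ip.

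The 8 were set beside 70 other genes of break formation, end processing, recombinase loading, intermediate stabilisation and crossover resolution. Of these, 25 were called between wild-type round spermatids and spermatocytes, 24 of them lower and 1 higher in round spermatids, with a median log2 fold change of -0.49, beside 24.2% of all genes called, 2333 lower and 2601 higher, and a median of 0.02. By step, 3 of 10 break formation genes, 4 of 10 end processing genes, 8 of 24 recombinase and loading genes and 4 of 10 stabilisation and designation genes were lower. Among 16 resolution and anti-crossover genes 5 were lower and 1 was higher. The last was Recql4, a RecQ helicase, at 1.17 (SE 0.24, edgeR adjusted p = 0.00131). The most negative were Mcmdc2, at -1.94 (SE 0.51), and Hfm1, the meiotic helicase of the crossover pathway, at -1.92 (SE 0.35, edgeR adjusted p = 7.08e-04). Hsf2bp, which binds BRCA2, fell by 0.50. Dmc1 thus rose where most of the called genes of its pathway fell, and Mlh3 and Ccnb1ip1 fell with them.

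In null mice 13 of the 70 were called between the fractions (17.1% of all genes were), again with Recql4 as the only one higher (0.97, SE 0.24) and Tex15 (-1.41, SE 0.42) and Ankrd31 (-0.99, SE 0.31) the lowest. Brca2 fell by 0.55. In heterozygous mice, where 8.89% of all genes were called, 1 was, Iho1, a factor of break formation (-0.66, SE 0.21, edgeR adjusted p = 0.049). Between genotypes none of the 70 was called in either fraction or in the interaction, and 69 were tested in spermatocytes and 68 in round spermatids. Against wild-type spermatocytes the extremes were Prdm9, which places the breaks, and Spata22, which acts on single-stranded DNA. Prdm9 stood at 1.46 (SE 0.43, edgeR adjusted p = 0.0657) in null and 1.82 (SE 0.42, edgeR adjusted p = 0.124) in heterozygous spermatocytes, and Spata22 at -2.23 (SE 0.98) and -1.49 (SE 0.91). The median of the list was -0.30 in null and -0.20 in heterozygous spermatocytes, beside -0.03 and 0.07 over all genes tested. Between null and heterozygous spermatocytes the extremes were Rpa3 at -0.89 (SE 0.42) and Tex15 at 0.67 (SE 0.39). Against wild-type round spermatids they were Meiob at -1.02 (SE 0.37) and Tex15 at 1.01 (SE 0.44) in null and -0.78 and 1.10 in heterozygous mice. Null and heterozygous round spermatids differed most in Mcmdc2, at -1.25 (SE 0.36, edgeR adjusted p = 0.631), and in Recql4, at 0.37. In the interaction Spata22 had the highest value, 1.82 (SE 1.41), and Mei4 the lowest, -1.07 (SE 0.88).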

How the data were processed

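Messenger RNA of the 2 cell fractions and 3 genotypes was measured by strand-specific, poly(A) selected sequencing. The authors trimmed the reads with Trim Galore, aligned them to mm10 with STAR and deposited its counts per gene, raw and unnormalized, in 1 table of 24 libraries. STAR counts only reads that align to 1 place, so those shared with a near-identical copy are dropped. The strand column and annotation release are not given in the sources used here. GENCODE M21 supplied symbols and coordinates, and 1 promoter window per start came from RefSeq (GRCm38.p6).

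Groups and replicate numbers follow the labels, which also name the 3 libraries left out. Each fraction was fitted on its own, and fraction comparisons and the interaction on all 21 libraries as 6 groups, with edgeR 4.0.16 (R 4.3.3) quasi-likelihood tests, TMM scaling and Benjamini-Hochberg adjustment over all genes tested. Adjusted p-values are those of edgeR unless DESeq2 (1.42.0), which the authors used and which was an alternative here, is named. SE is the log2 fold change divided by the root of F, and intervals are 95% from the t distribution with the fit's degrees of freedom. Correlations between genes used log2 CPM with a prior count of 2, and those with marker lists used log2 of CPM without a prior count. The 8 members, the lists of pathway and marker genes and the motifs were chosen with earlier results of these data known. Of the pathway list, the text names the genes called in a comparison, or the 2 largest and 2 smallest log2 fold changes where more than 4 were called, or the 1 highest and 1 lowest where none was, and for each member the 1 gene most like it. Other scalings, no filter, the outlier libraries, each library left out, blocks and a library number term were alternatives. The 27 pairs of libraries within groups differed by a chi-square of 6.80 to 74.3 per gene, so none was a repeat deposit.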

Additional observations from a re-analysis of the deposited data

Results flagged for a closer look

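In groups of 4 libraries, 24 pairs of a group and a member were examined for a library far from the rest, and 2 stood out by Dixon's criterion, where chance gives about 1 in 20. Dmc1 in wild-type spermatocyte replicate 4 was 5.19 CPM, against 2.23 to 2.70 CPM in the other 3. That library also held the highest pachytene list, 8416 CPM, and the highest Mlh3, Ccnb1ip1, Msh4 and Mnd1 of its group. Rnf212 in heterozygous round spermatid replicate 3 was 3.14 CPM, against 1.93 to 2.13 CPM in the other 3.

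The round spermatid library labelled wild-type replicate 3, which the labels left out, held 3 members above all wild-type round spermatid libraries used. Its summed RS2 round spermatid list was 7307 CPM, within the 4788 to 10134 CPM of the wild-type spermatocytes used and below the 25562 CPM or more of the wild-type round spermatids used, while its pachytene list, 2515 CPM, and its list of diplotene and division stages, 10283 CPM, were within the range of the latter and below that of the former. What its levels stand for was not tested. Mlh3 was 20.8 CPM there, against 10.1 to 13.8 CPM, Msh4 was 12.2 CPM, against 8.40 to 9.01 CPM, and Msh5 was 10.8 CPM, against 9.02 to 10.3 CPM. Of the other 5 members 4 were below the used wild-type range and 1 was within it. In the 2 spermatocyte libraries left out, no member was above the used wild-type range. In that of the wild-type 5 members were below it, Mlh3 among them at 14.3 CPM, and in that of the heterozygote 4 were, with Mlh3 at 8.69 CPM. Against the used heterozygous spermatocytes the latter was above in Msh4 (11.9 against 6.93 to 11.4 CPM) and Rnf212 (3.04 against 2.48 to 2.61 CPM). It was below them in Dmc1, Msh5, Ccnb1ip1 and Mlh3, and within their range in Psmc3ip and Mnd1. Levels of the libraries left out come from a separate scaling over all 24 libraries.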

How the results depend on the processing

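With 3 or 4 pools a group, p-values measure only the spread between these pools, and members with under 50 counts in a library, foremost Mnd1 and Ccnb1ip1, are limited by depth. What the library numbers stand for is not given in the labels. In spermatocytes, 1 of 4 wild-type, 0 of 3 heterozygous and 2 of 3 null libraries used had a number above 60, and in round spermatids 1 of 3, 1 of 4 and 2 of 4. The term for that split is given below. Of 17 same-numbered pairs of a fraction, 4 had deviations that correlated above 0.1 (-0.24 to 0.17 over all 17). These 4 were all of spermatocytes (0.14 to 0.17), and the highest value in round spermatids was 0.087. Whether the replicate numbers pair the spermatocyte samples is not settled by these values. The replicate block is given in this section only. It left 0 members called in each comparison of genotypes and, over the table, 687 genes called in null and 2 in heterozygous against wild-type spermatocytes. Consecutive library numbers paired 8 of 9 preparations across fractions above 0.1, and a block by them gave 1189 genes called between heterozygous fractions, moved Msh5 in null fractions to 0.031 and ended the call of Dmc1 (0.73, edgeR adjusted p = 0.0553). The causes of the changes given here were not tested.

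For null against wild-type spermatocytes, DESeq2 called 1 member and 3026 genes, no filter on low counts 2 members and 2623 genes, a term for library numbers above 60 called 4 genes and a fit of the compared groups alone 1303. For heterozygous against wild-type spermatocytes no filter called 2 members and 1481 genes, DESeq2 1228 genes, and adding back the outlier libraries or fitting the compared groups alone called 3 and 2. Null against heterozygous spermatocytes gave 4 genes in DESeq2, 30 without the filter and 0 with the compared groups alone. In round spermatids null against wild-type gave 20 genes with RLE factors, 702 in DESeq2, 238 without the filter and 26 with the outlier library, heterozygous against wild-type gave 7 in DESeq2 and 10 without the filter, and null against heterozygous 20 and 11. Between fractions, adding back the outlier libraries left 0 members and 0 genes in wild-type and 0 genes in heterozygous mice (5950 and 3471 with an unadjusted p below 0.05 in edgeR), and 2275 genes in null mice. Library totals without a scaling factor called 1 member (Psmc3ip) and 2791 genes in heterozygous and 1 member (Mlh3) in null mice, where no filter also called 1 (Mlh3). That scaling moved the median of all genes between fractions to -0.15, -0.28 and -0.26 and the share of calls that were higher from 52.7% to 35.7%, 79.5% to 37.8% and 68.4% to 34.2% in wild-type, heterozygous and null mice. It left Mlh3 and Ccnb1ip1 lower and Dmc1 higher in wild-type round spermatids, Dmc1 without a call (0.61).

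Leaving out 1 library at a time gave 0 to 2 members and 4 to 4526 genes called in null, and 0 to 2 members and 3 to 2966 genes in heterozygous against wild-type spermatocytes. The highest values of both came without wild-type replicate 5. In round spermatids null against wild-type gave 5 to 9 genes and null against heterozygous 1 to 2. Between fractions the range was 1 to 2 members and 3394 to 6398 genes in wild-type, 0 to 1 member and 962 to 2329 genes in heterozygous, and 0 to 1 member and 1248 to 4129 genes in null mice. The 1 member was Psmc3ip without heterozygous spermatocyte replicate 2, and Mlh3 without null spermatocyte replicate 1 or null round spermatid replicate 3.

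Of 1256 values of single members under an alternative, 87 changed sign, none of them called, the largest being 0.30. In null against wild-type spermatocytes Msh4 became 0.013 with RLE factors, 0.0065 with library totals, 0.012 in DESeq2 and without the filter, 0.11 with the outlier libraries, 0.20 with the block and 0.033 with the compared groups alone. In heterozygous against wild-type spermatocytes Msh4 became 0.054 with the outlier libraries and 0.055 with the block, Psmc3ip -0.15 with the block and Mnd1 -0.0026 with the library number term. That term moved null against heterozygous spermatocytes to 0.26 for Dmc1, 0.076 for Rnf212 and 0.25 for Ccnb1ip1, where the outlier libraries gave 0.045 for Dmc1 and no filter 0.0053 for Rnf212. In null against wild-type round spermatids Dmc1 became 0.011 without the filter, 0.13 with the outlier library, 0.052 with the block and 0.0034 with the library number term, and Msh4 -0.0072 with library totals, -0.12 with the outlier library and -6.1e-05 with the block. In heterozygous against wild-type round spermatids Dmc1 became 0.0014, 0.098 and 0.037 without the filter, with the outlier library and with the block, Mnd1 0.018 and 0.016 with the first 2 of these, Mlh3 -0.13 and -0.017 with the last 2 and Msh4 -0.055 with the outlier library. The library number term gave 0.072 for Ccnb1ip1 in null against heterozygous round spermatids. Between heterozygous fractions library totals gave -0.038 for Dmc1 and -0.22 for Msh4, and the outlier libraries -0.072 for Msh4. The interaction of Msh4 became -0.013 with library totals and -0.13 with the outlier libraries.

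With 1 library left out at a time, sign changes gave these ranges. In null against wild-type spermatocytes Msh4 ran from -0.18 to 0.16. In heterozygous against wild-type spermatocytes Psmc3ip ran from -0.30 to 0.26, Mnd1 from -0.23 to 0.60, Msh4 from -0.33 to 0.026 and Msh5 from -0.14 to 0.011. In null against heterozygous spermatocytes Dmc1 ran from -0.42 to 0.0088, Psmc3ip from -0.49 to 0.053, Msh4 from -0.031 to 0.33, Rnf212 from -0.13 to 0.021 and Mlh3 from -0.29 to 0.31. In null against wild-type round spermatids Dmc1 ran from -0.14 to 0.10 and Msh4 from -0.015 to 0.045. In heterozygous against wild-type round spermatids Dmc1 ran from -0.26 to 0.089, Mnd1 from -0.13 to 0.060, Msh4 from -0.0059 to 0.17, Msh5 from -0.11 to 0.027 and Mlh3 from -0.15 to 0.30. In null against heterozygous round spermatids Dmc1 ran from -0.089 to 0.23, Msh4 from -0.16 to 0.018 and Ccnb1ip1 from -0.20 to 0.21. Between fractions Mnd1 in wild-type ran from -0.60 to 0.014, Msh4 in heterozygous from -0.16 to 0.22, and Msh5 and Ccnb1ip1 in null mice from -0.12 to 0.037 and from -0.10 to 0.096. The interaction ran from -0.052 to 0.25 for Msh4 and from -0.21 to 0.025 for Rnf212.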
